A study of Mus musculus with 20 samples.

Results

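The 9 genes followed here belong to the gp130 cytokine system and were measured in 20 neurosphere libraries: the ligands Clcf1, Lif and Cntf, the receptor chains Cntfr, Lifr, Il6st and Osmr, the transcription factor Stat3 and the feedback inhibitor Socs3. They were taken by name from a table of 36724 genes. These 9 genes were chosen by name with the values of the same 6 groups in view, Clcf1 above all. Their differences between groups are therefore descriptions, printed without p-values. Whether a member passed an adjusted p threshold (called, below) is likewise a description of these libraries and not independent evidence. Of the 9 members, 8 reached 0.5 RPKM (reads scaled to the gene's length and the library's depth) in at least 3 libraries, and 1, Cntf, did not.

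gp130, the product of Il6st, is the signal-transducing chain shared by cytokines of the interleukin-6 family. LIF binds the LIF receptor (Lifr) paired with gp130, and CNTF and CLCF1 first bind the CNTF receptor (Cntfr), which has no signalling domain of its own and joins both other chains. The oncostatin M receptor (Osmr) is the partner of gp130 for oncostatin M. Bound receptors activate JAK kinases, which phosphorylate STAT3, and STAT3 switches on Socs3, whose product blocks the receptor complex. In neural precursors this pathway is known for promoting astrocyte differentiation and, in the subventricular zone, stem cell self-renewal.

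Neurospheres are floating colonies grown from neural stem and progenitor cells. All cultures came from adult C57BL6 mice aged 8 to 12 weeks, were grown untreated in medium with 20 ng/ml EGF and FGF, and were either Egfl7 knockout or wild type. Egfl7 encodes a secreted protein with EGF-like domains. The groups were SVZ knockout and SVZ wild type (subventricular zone, first sphere round, culture day 3, 3 libraries each, male donors), HC2 knockout and HC2 wild type (hippocampus, second round, day 5, 4 each, male donors), and HC1 knockout and HC1 wild type (hippocampus, first round, day 5, 3 each). HC1 knockouts came from males and HC1 wild types from females. Donor sex and genotype therefore cannot be told apart in HC1, nor region and culture day between SVZ and hippocampus, nor sphere round and sequencing depth between HC2 and HC1. Mouse numbers in the labels differ between the libraries of a group, but whether cultures were separate, and in what cells and by what allele Egfl7 is lost, is not said there.

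Depth worked out from the values was 11.67 to 13.88 Mreads (megareads) in the SVZ and HC1 libraries and 17.77 to 31.22 Mreads in HC2. Egfl7 went against the label in 2 SVZ libraries, with 2.86 RPKM in the one labelled SVZ knockout replicate 2 and a listed 0 in the one labelled SVZ wild type replicate 3. The other SVZ libraries had 0.094 and 0 RPKM in knockouts and 1.73 and 2.99 RPKM in wild types, and all 7 hippocampal knockouts were listed at 0, against 0.566 to 1.59 RPKM in the hippocampal wild types. SVZ results below therefore name libraries by label and are also given without those 2. Neural stem cell markers were present throughout, with all 7 listed genes past the filter, against 2 of 8 endothelial, 2 of 7 pericyte and fibroblast and 1 of 9 microglial markers. Those past the filter were the endothelial Flt1 (up to 6.70 RPKM) and Kdr (up to 1.36), Acta2 (up to 31.5) and Pdgfrb (up to 1.32), and the microglial Itgam (up to 2.76). The endothelial Cdh5 and Cldn5 stayed at or below 0.049 RPKM, Dcn and Lum at or below 0.074 RPKM, and the microglial Cx3cr1, C1qa and Trem2 were at 0 in all 20 libraries. These are bulk samples, in which fewer cells of a type and less RNA per cell cannot be told apart.

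Per gene length, Stat3 was the most abundant member, with a median of 80.4 RPKM over the 20 libraries and a range of 64.4 to 152. The receptor chains followed, Il6st with a median of 38.8 RPKM (29.3 to 80.4), Cntfr with 31.5 RPKM (21.6 to 60.8) and Lifr with 20.4 RPKM (14.6 to 74.9), and the ranges of neighbours in this order overlapped. Socs3 had a median of 2.32 RPKM (1.05 to 7.61) and Osmr of 0.400 RPKM (0.090 to 7.78), again with overlapping ranges but all below the lowest value of the receptor chains Il6st, Cntfr and Lifr. The ligands lay lowest, Clcf1 at a median of 0.147 RPKM (0 to 3.33) and Lif at 0.142 RPKM (0 to 1.95), and Cntf was listed at 0 in all 20 libraries. The spheres thus held abundant transcripts for all 3 chains of the CNTF receptor complex and little for the ligands Clcf1 and Lif.

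**Figure D1:**
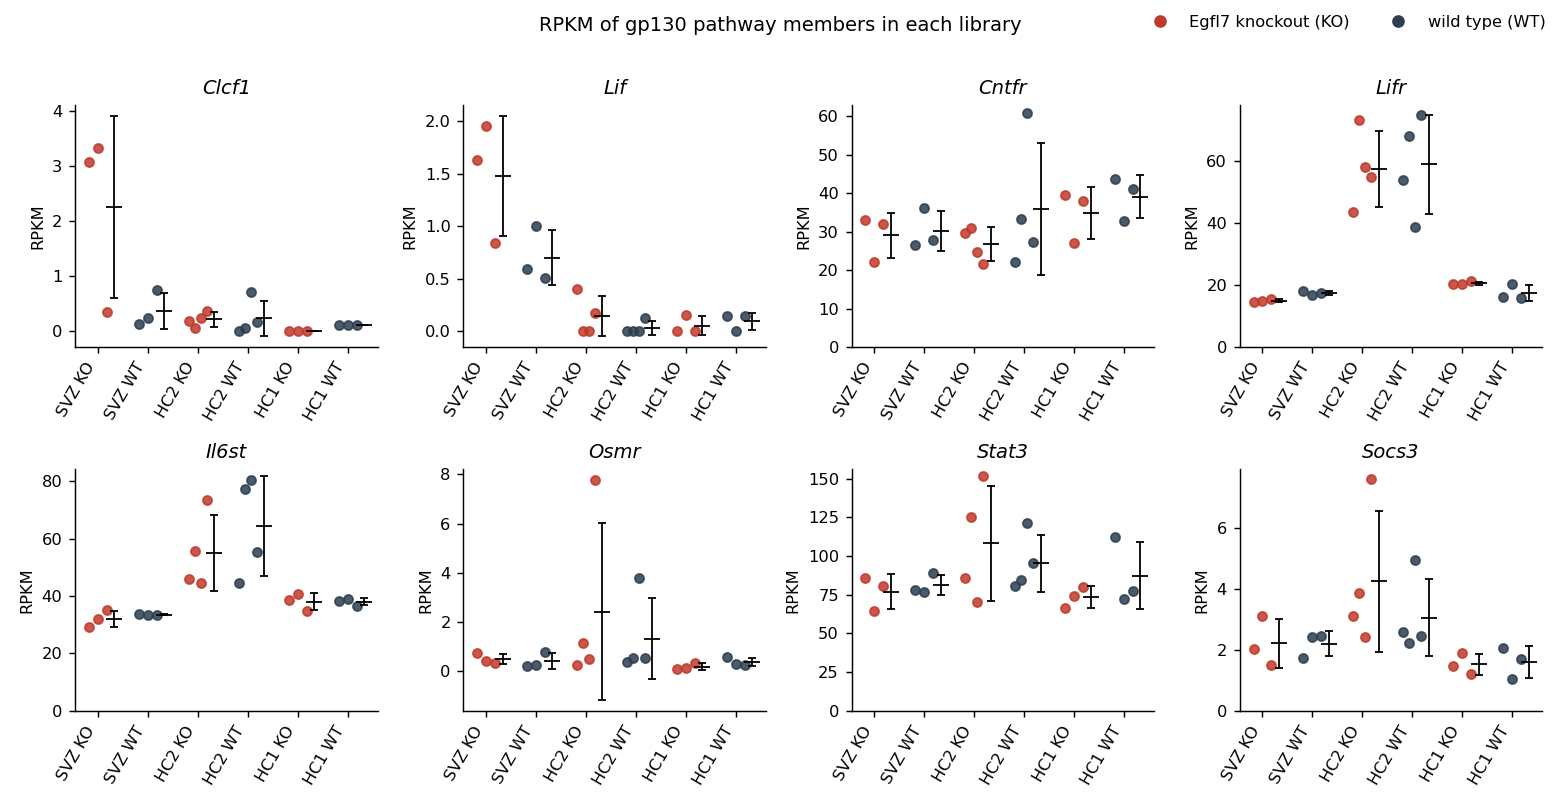
Expression (RPKM, linear axes of their own per gene) of the 8 measured members in each of the 20 libraries; each point is 1 library, red for Egfl7 knockout and dark blue for wild type, and the bar beside each group is its mean ± SD (n = 3 in SVZ and HC1, 4 in HC2). Clcf1 reaches 3.07 and 3.33 RPKM in only 2 libraries, both labelled SVZ knockout, and Lifr is at 38.8 RPKM or more in every HC2 library, against at most 21.2 RPKM elsewhere.

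Clcf1 (NCBI gene 56708, GRCm38 chromosome 19, 4214392 to 4222615, plus strand) encodes cardiotrophin-like cytokine factor 1, a ligand of the CNTF receptor complex. In the libraries labelled SVZ knockout it had 3.07, 3.33 and 0.348 RPKM, against 0.123, 0.231 and 0.744 RPKM in those labelled SVZ wild type. Both high libraries carried the knockout label, but the third knockout lay below the highest wild type, so the groups overlapped. Clcf1 values were whole multiples of 1 read on its coding length of 678 bases, to within 0.0037 read on average, and came to 27, 29 and 3 reads in the libraries labelled knockout and 1, 2 and 7 reads in those labelled wild type. The difference of the means was 1.10 on the log2(RPKM + 1) scale, with a standard error of 0.32 and a 95% interval of 0.42 to 1.77. It was not called among the 16403 genes tested (limma, adjusted p under 0.05).

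One of the high libraries is the one labelled knockout with an Egfl7 level of a wild type. Without it and its wild-type counterpart the difference was 0.99, now between 3.07 and 0.348 RPKM in the libraries labelled knockout and 0.123 and 0.231 RPKM in those labelled wild type. Without SVZ knockout replicate 3 it was 1.65 and was called by the same test. Since the members were chosen on this contrast, that call describes these libraries. With 0.1 in place of 1 as the pseudocount the difference was 2.10, as the added constant shrinks the differences of low genes.

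In the hippocampus Clcf1 rested on few reads. HC2 knockouts had 0.189, 0.051, 0.249 and 0.363 RPKM, against 0, 0.057, 0.707 and 0.171 RPKM in HC2 wild types, which is 1 to 5 reads against 0 to 14. The library with 14 reads, HC2 wild type replicate 5, lay above 3 of the 6 SVZ libraries. HC1 knockouts were all at 0, where 3 reads would have given 0.362 to 0.379 RPKM, and HC1 wild types had 0.115, 0.117 and 0.114 RPKM, 1 read each. The knockout difference was 0.002 ± 0.28 (SE) in HC2 and −0.16 ± 0.32 in HC1, so no difference was detectable at this depth. The difference between the knockout effects was 1.26 ± 0.45 for SVZ against HC1 and 1.10 ± 0.42 for SVZ against HC2, neither of them called, and 1.15 and 0.99 without the 2 SVZ libraries whose Egfl7 goes against the label. Both share the SVZ libraries, and the second was called without SVZ knockout replicate 3 (difference 1.64). An uncharacterised locus, LOC102631992, overlaps Clcf1 on the other strand and had 0 to 0.445 RPKM.

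Lif (NCBI gene 16878, chromosome 11, 4257568 to 4272514, plus strand), which encodes leukemia inhibitory factor, had 1.64, 1.95 and 0.844 RPKM in the libraries labelled SVZ knockout, against 0.592, 0.999 and 0.511 RPKM in those labelled SVZ wild type. Here too the first 2 knockouts lay highest, and the third lay among the wild types. The difference was 0.53 ± 0.17, with a 95% interval of 0.17 to 0.88, and 0.31 without the 2 SVZ libraries whose Egfl7 goes against the label. HC2 knockouts had 0.402, 0, 0 and 0.170 RPKM, against 0, 0, 0 and 0.127 RPKM in HC2 wild types. HC1 knockouts had 0, 0.156 and 0 RPKM, against 0.142, 0 and 0.141 RPKM in HC1 wild types. Every SVZ library thus lay above every hippocampal one. The knockout difference was 0.14 ± 0.15 in HC2 and −0.06 ± 0.17 in HC1.

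Cntf (NCBI gene 12803, chromosome 19, 12763528 to 12765632, minus strand), the gene of ciliary neurotrophic factor, was listed at 0 in every library. It lies wholly within the deposited gene Zfp91Cntf, which covers 12763528 to 12796123 on the same strand and had a median of 4.15 RPKM, from 2.95 to 13.6. The sources used here do not say how reads of the shared stretch were assigned, and the 0 cannot be read as absence of Cntf transcript.

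The genes most like Clcf1 over the 20 libraries, among 11578 ranked, were Thbs2 (Pearson r = 0.90), Emp3 (r = 0.88), Plxnd1 (r = 0.87), Angptl2 (r = 0.87) and Col18a1 (r = 0.85). Thbs2 encodes thrombospondin 2, an extracellular matrix protein. Plxnd1 encodes a semaphorin receptor, and Col18a1 the collagen that is the source of endostatin. These correlations are a description, since the libraries share region, round and depth. They were carried in part by SVZ knockout replicates 1 and 2, without which r was 0.63 for Thbs2, 0.63 for Emp3, 0.73 for Plxnd1, 0.66 for Angptl2 and 0.60 for Col18a1 over 18 libraries.

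Col18a1 showed the shared pattern in full. It had 22.6, 61.0 and 5.43 RPKM in the libraries labelled SVZ knockout, against 2.90, 3.66 and 22.9 RPKM in those labelled SVZ wild type. Thbs2 had 3.67, 12.1 and 0.559 RPKM in those labelled knockout, against 0.451, 0.401 and 3.03 RPKM in those labelled wild type. In both genes, as in Clcf1, the library labelled SVZ wild type replicate 3 was the highest of the wild types and the library labelled SVZ knockout replicate 3 the lowest of the knockouts. Pericyte and fibroblast markers summed to 7.75, 9.81 and 19.2 RPKM in the libraries labelled SVZ knockout, against 32.1, 8.21 and 15.5 RPKM in those labelled wild type. Most of these sums came from Acta2, and the part of such cells in the Clcf1 values was not tested. Endothelial markers summed to 7.96, 4.07 and 4.85 RPKM in the libraries labelled SVZ knockout, against 6.29, 3.54 and 6.86 RPKM in those labelled wild type.

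**Figure D2:**
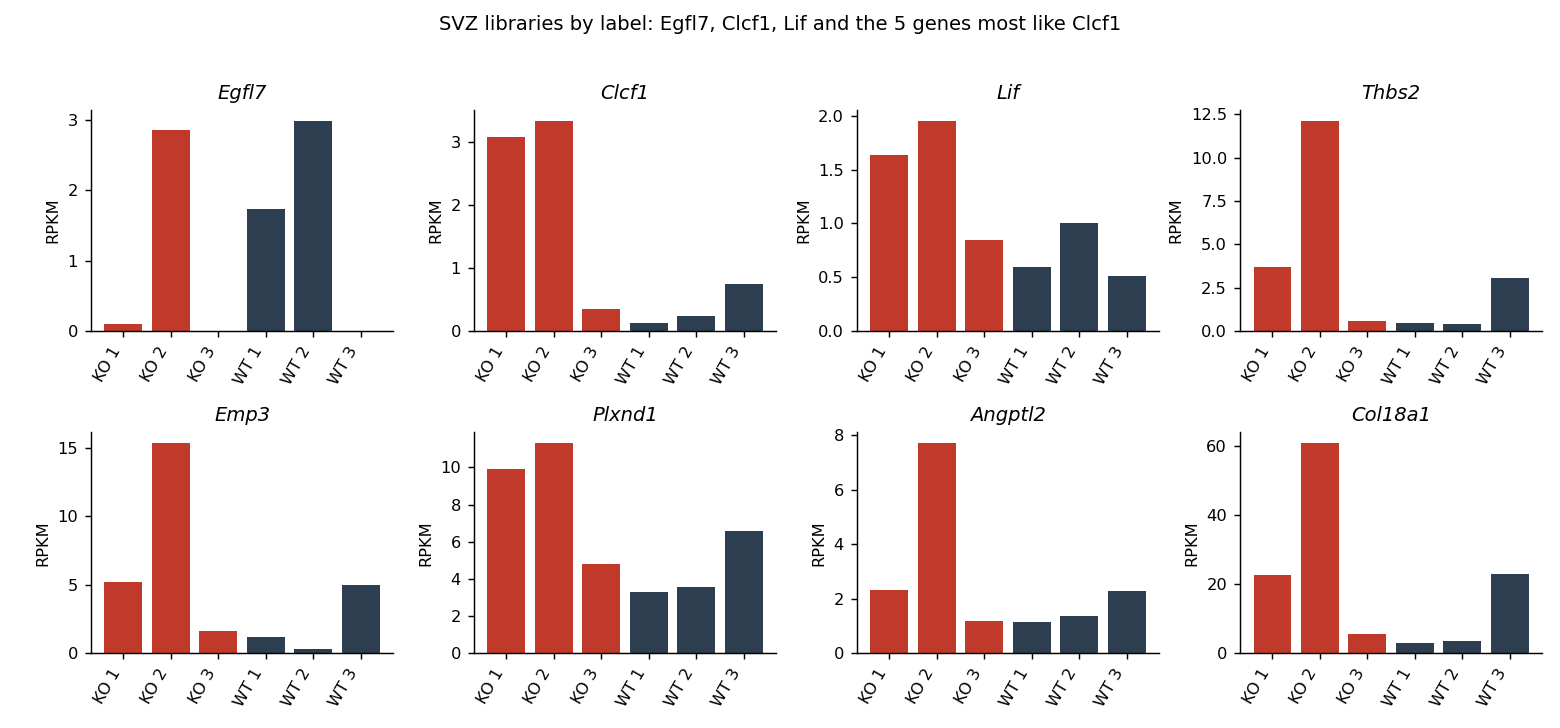
Expression (RPKM, 1 bar per library, each panel with its own axis from 0) in the 6 SVZ libraries of Egfl7, Clcf1, Lif and the 5 genes most like Clcf1 over all 20 libraries, red for libraries labelled knockout and dark blue for wild type. The library labelled KO 2 has 2.86 RPKM of Egfl7 and the highest Clcf1 of all, 3.33 RPKM; WT 3 is listed at 0 for Egfl7 and has the highest Clcf1 of the wild types, 0.744 RPKM.

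Among the receptor chains, Il6st (NCBI gene 16195, chromosome 13, 112464070 to 112506860, plus strand), which encodes gp130 itself, had 29.3, 31.9 and 35.0 RPKM in the libraries labelled SVZ knockout, against 33.8, 33.3 and 33.5 RPKM in those labelled SVZ wild type. The HC2 knockouts had 46.0, 55.8, 44.5 and 73.4 RPKM, against 44.4, 77.2, 80.4 and 55.1 RPKM in HC2 wild types. The HC1 knockouts had 38.6, 40.7 and 34.9 RPKM, against 38.2, 39.1 and 36.7 RPKM in HC1 wild types. Knockout and wild-type values overlapped in each of the 3 settings, and the 95% intervals of the knockout difference ran from −0.47 to 0.34 in SVZ, from −0.56 to 0.14 in HC2 and from −0.41 to 0.41 in HC1.

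Lifr (NCBI gene 16880, chromosome 15, 7090611 to 7197489, plus strand), the LIF receptor, had 14.6, 14.8 and 15.7 RPKM in the libraries labelled SVZ knockout, against 18.2, 16.9 and 17.5 RPKM in those labelled SVZ wild type. All 3 knockouts lay below all 3 wild types, the sole member for which SVZ genotype labels did not overlap, as also held for 4.35% of all genes tested. The difference was −0.21 ± 0.20, and −0.20 without the 2 SVZ libraries whose Egfl7 goes against the label. In HC2 the knockouts had 43.6, 73.3, 58.0 and 54.7 RPKM, against 54.0, 67.9, 38.8 and 74.9 RPKM in wild types. In HC1 the knockouts had 20.2, 20.4 and 21.2 RPKM, against 16.0, 20.5 and 15.7 RPKM in wild types, and the groups overlapped in both.

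Cntfr (NCBI gene 12804, chromosome 4, 41657498 to 41697091, minus strand), the ligand-binding chain for CNTF and CLCF1, had 32.9, 22.2 and 32.0 RPKM in the libraries labelled SVZ knockout, against 26.5, 36.1 and 27.7 RPKM in those labelled SVZ wild type. In HC2 the knockouts had 29.6, 31.0, 24.7 and 21.6 RPKM, against 22.2, 33.2, 60.8 and 27.3 RPKM in wild types. In HC1 the knockouts had 39.4, 27.0 and 37.9 RPKM, against 43.6, 32.7 and 41.1 RPKM in wild types. Values overlapped in all 3 settings, and the knockout differences were −0.06 ± 0.28 in SVZ, −0.32 ± 0.24 in HC2 and −0.17 ± 0.28 in HC1.

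Osmr (NCBI gene 18414, chromosome 15, 6813568 to 6875246, minus strand), the oncostatin M receptor, was low in nearly all libraries. The libraries labelled SVZ knockout had 0.723, 0.423 and 0.338 RPKM, against 0.212, 0.225 and 0.778 RPKM in those labelled SVZ wild type. The HC2 knockouts had 0.255, 1.14, 0.508 and 7.78 RPKM, against 0.376, 0.545, 3.78 and 0.545 RPKM in HC2 wild types. A single library stood high in each HC2 group, knockout replicate 8 and wild type replicate 5. HC1 knockouts had 0.090, 0.123 and 0.325 RPKM, against 0.557, 0.287 and 0.249 RPKM in HC1 wild types. Values overlapped throughout, and the knockout differences were 0.10 ± 0.55 in SVZ, 0.29 ± 0.48 in HC2 and −0.21 ± 0.55 in HC1, the widest errors among the 8 members.

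Stat3 (NCBI gene 20848, chromosome 11, 100886810 to 100939570, minus strand), the main transcription factor of the pathway, had 85.9, 64.4 and 80.4 RPKM in the libraries labelled SVZ knockout, against 78.0, 76.8 and 88.9 RPKM in those labelled SVZ wild type. The HC2 knockouts had 85.5, 125, 70.0 and 152 RPKM, against 80.3, 84.2, 121 and 95.6 RPKM in HC2 wild types. The HC1 knockouts had 66.4, 74.0 and 80.2 RPKM, against 112, 71.9 and 77.7 RPKM in HC1 wild types. All 3 pairs of groups overlapped, and the differences were −0.09 ± 0.24 in SVZ, 0.13 ± 0.21 in HC2 and −0.22 ± 0.24 in HC1. These are transcript levels, and the active, phosphorylated form of the protein was not measured.

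Socs3 (NCBI gene 12702, chromosome 11, 117966079 to 117970341, minus strand), the STAT3-induced inhibitor, is the member whose transcript is commonly read as a sign of pathway activity. It was also the sole member of the 8 with a promoter window in RefSeq (GRCm38.p6, 250 bases before to 50 after the start, 300 in all) whose window held TTCNNNGAA, the STAT palindrome, which reads the same on both strands. That motif stood in the windows of 9.554% of the 27025 genes with one, so 1 of 8 is no more than a description. Clcf1 is without a window in that table. The Socs3 window, chr11:117969317-117969616 on the minus strand, lies wholly inside the gene span given above. The start it is drawn from is thus not the 5′ end of that span. It is printed 5′ to 3′ with the motif in capitals, at positions −154 to −146 from that start.
Socs3 promoter: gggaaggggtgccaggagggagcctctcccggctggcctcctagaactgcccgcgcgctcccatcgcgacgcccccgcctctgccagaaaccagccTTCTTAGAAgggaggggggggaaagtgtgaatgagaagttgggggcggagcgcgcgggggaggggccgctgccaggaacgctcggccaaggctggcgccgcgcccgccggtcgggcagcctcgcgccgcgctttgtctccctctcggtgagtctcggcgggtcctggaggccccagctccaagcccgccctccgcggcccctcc

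In the libraries labelled SVZ knockout Socs3 had 2.04, 3.10 and 1.51 RPKM, against 1.73, 2.43 and 2.44 RPKM in those labelled SVZ wild type. The difference was −0.01 ± 0.30, with a 95% interval of −0.65 to 0.62. By library, SVZ knockout replicate 2, the highest for Clcf1 and Lif, also had the highest Socs3 of the SVZ libraries (3.10 RPKM). Replicate 1, the other library with high Clcf1 and Lif, lay within the wild-type range at 2.04 RPKM, and replicate 3 was the lowest at 1.51 RPKM. A link between ligand and Socs3 levels was not tested. HC2 knockouts had 3.12, 3.86, 2.41 and 7.61 RPKM, against 2.58, 2.24, 4.95 and 2.46 RPKM in HC2 wild types. HC1 knockouts had 1.47, 1.90 and 1.21 RPKM, against 2.08, 1.05 and 1.71 RPKM in HC1 wild types. The knockout difference was 0.33 ± 0.26 in HC2 and −0.04 ± 0.30 in HC1, and groups overlapped in each setting. Socs3 rested on 9 to 27 reads per SVZ or HC1 library and 29 to 105 per HC2 library.

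Counted together, 0 of the 8 members were called between knockout and wild type in SVZ, HC2 or HC1 (limma, adjusted p under 0.05). The same test called 0.0122% of 16403 genes in SVZ (2 genes), 0.0244% in HC2 (4 genes) and 0.0122% in HC1 (2 genes). At an unadjusted p under 0.05 it found 379, 644 and 646 genes. Clcf1 and Lif were the 2 members with an interval of the knockout difference above 0, both in SVZ. Without the 2 SVZ libraries whose Egfl7 goes against the label, the SVZ difference was 0.07 for Cntfr, −0.07 for Il6st, 0.32 for Osmr, 0.10 for Stat3 and −0.15 for Socs3, and no member was called. None of the 8 had a difference between knockout effects that was called, with a background of 0.0122% for SVZ against HC1, 0.0305% for SVZ against HC2 and 0.0244% for HC1 against HC2 (2, 5 and 4 genes). In HC2, 0 of the 8 members had all knockouts above all wild types (0.719% of genes) or all below (0.408%). In HC1 the sole member without overlap was Clcf1, at 0 against 1 read, beside 7.05% of genes with all knockouts below.

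**Figure D3:**
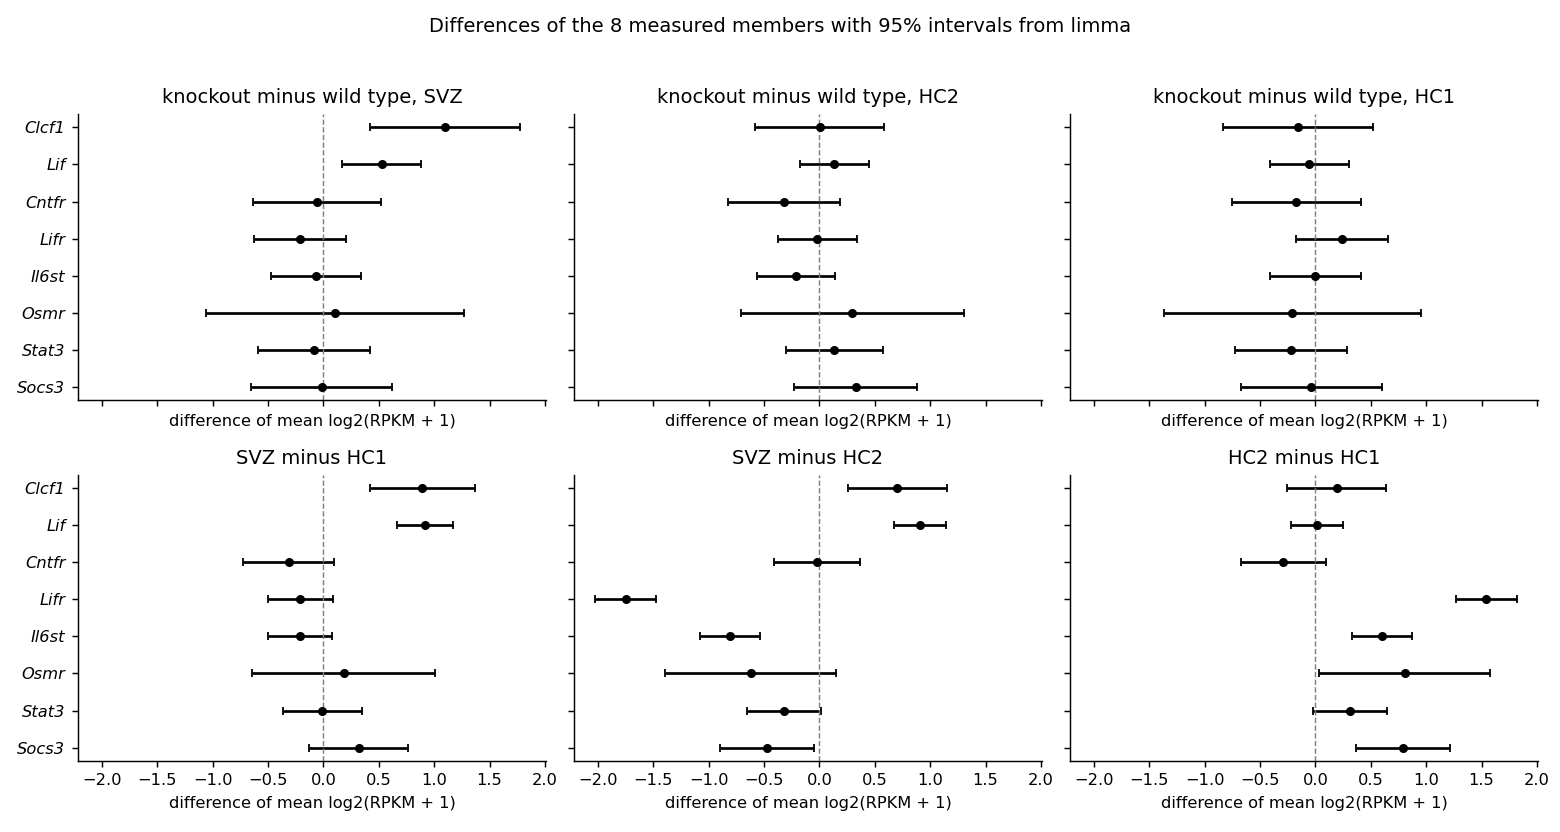
Differences of the 8 measured members on the log2(RPKM + 1) scale, each point a difference of group means and each bar its 95% interval from limma; the upper row shows Egfl7 knockout minus wild type, the lower row regions and rounds with the genotypes averaged. Intervals above 0 for the genotype occur in SVZ alone, for Clcf1 (0.42 to 1.77) and Lif (0.17 to 0.88); Lifr has the largest differences of the lower row, −1.75 and 1.54.

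More members were called between regions and sphere rounds than between genotypes, as were more genes at large. For Clcf1 and Cntfr, though, the largest genotype difference (1.10 in SVZ and −0.32 in HC2) was no smaller than any of their region and round differences. The 3 region and round comparisons share their groups and their values are not independent of each other. SVZ spheres had more Lif and Clcf1 transcript than hippocampal ones. Lif ranged from 0.511 to 1.95 RPKM in SVZ, with a median of 0.922, against medians of 0 in HC2 (0 to 0.402) and 0.071 RPKM in HC1 (0 to 0.156). The differences were 0.91 ± 0.11 for SVZ minus HC2 and 0.92 ± 0.12 for SVZ minus HC1, and 0.88 and 0.89 without the 2 SVZ libraries whose Egfl7 goes against the label. Clcf1 had a median of 0.546 RPKM in SVZ (0.123 to 3.33), against 0.180 RPKM in HC2 (0 to 0.707) and 0.057 RPKM in HC1 (0 to 0.117). Its differences were 0.70 ± 0.21 for SVZ minus HC2 and 0.89 ± 0.23 for SVZ minus HC1, and were 0.46 and 0.65, no longer called, without those 2 libraries.

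Clcf1 and Lif were the 2 of 8 members called between SVZ and HC1, both higher in SVZ, beside 34.1% of all genes called and 14.5% higher. Lif reached 0.5 RPKM in SVZ libraries alone. Clcf1 reached it in SVZ knockout replicates 1 and 2, SVZ wild type replicate 3 and HC2 wild type replicate 5. They thus passed the filter wholly or mostly through SVZ, so their higher SVZ levels against either hippocampal round are partly built in. All SVZ libraries lay above all HC1 libraries for these 2 members, as for 11.4% of genes. Between the knockout groups alone, all from male donors, the differences were 1.52 for Clcf1 and 1.21 for Lif. The SVZ knockout group holds the 2 libraries with high Clcf1. In wild types, with female donors in HC1, the mean log2(RPKM + 1) of Clcf1 was 0.42 in SVZ and 0.16 in HC1. That of Lif was 0.76 in SVZ and 0.13 in HC1. Of the other family ligands and partners listed, 7 of 9 stayed under the filter, and Osm and Il31 were at 0 in all libraries. The 2 that passed it were not higher in SVZ. Their median difference was −0.27 for SVZ minus HC1 and −0.72 for SVZ minus HC2, against −0.03 and 0.00 over all genes. Endothelial markers summed to 3.54 to 7.96 RPKM in SVZ libraries and to 0.706 to 2.54 RPKM in hippocampal ones. Flt1 was called higher in SVZ than in HC2 and HC1. Kdr was called higher than in HC2, but its SVZ minus HC1 difference was not above 0. Cdh5 and Cldn5 stayed at or below 0.049 RPKM. Itgam, the 1 of 9 microglial markers past the filter, was called higher in SVZ than in both, while Cx3cr1, C1qa and Trem2 were at 0. Whether such cells were present, and their part in the ligand levels, was not tested.

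The receptor chains went the other way, highest in second-round hippocampal spheres. Lifr had 38.8 to 74.9 RPKM in HC2 with a median of 56.4, against 15.7 to 21.2 RPKM in HC1 with a median of 20.3. The difference was 1.54 ± 0.13 for HC2 minus HC1, and the ranges did not overlap. SVZ libraries, at 14.6 to 18.2 RPKM, stood 1.75 ± 0.13 below HC2. Il6st ranged from 44.4 to 80.4 RPKM in HC2, with a median of 55.5, against 34.9 to 40.7 RPKM in HC1, with a median of 38.4. The difference was 0.60 ± 0.13, and SVZ libraries, at 29.3 to 35.0 RPKM, lay 0.81 ± 0.13 below HC2. Cntfr did not follow these chains, with medians of 29.9 RPKM in SVZ, 28.4 in HC2 and 38.6 in HC1 and ranges that overlapped. Its HC2 minus HC1 difference was −0.29 ± 0.18, and −0.43, called, without HC2 wild type replicate 5, the library with 60.8 RPKM.

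Socs3 had a median of 2.85 RPKM in HC2 (2.24 to 7.61), against 1.59 RPKM in HC1 (1.05 to 2.08), a difference of 0.79 ± 0.20 with no overlap. In SVZ its median was 2.24 RPKM (1.51 to 3.10), and the SVZ minus HC2 difference was −0.47 ± 0.20, with overlap. That call was lost with the replicate number as a block, and without any 1 of SVZ knockout replicates 1 and 3, SVZ wild type replicates 1, 2 and 3, HC2 knockout replicates 4 and 8 or HC2 wild type replicate 5, which gave −0.50 to −0.34. Stat3 had medians of 79.2 RPKM in SVZ, 90.6 in HC2 and 75.8 in HC1, all overlapping, with differences of −0.32 ± 0.16 for SVZ minus HC2 and 0.31 ± 0.16 for HC2 minus HC1. Without HC2 knockout replicate 7 these were −0.41 and 0.41, both called, and the second was also called without HC1 wild type replicate 1 (0.41). Osmr had medians of 0.381 RPKM in SVZ, 0.545 in HC2 and 0.268 in HC1 and likewise overlapped. Its HC2 minus HC1 difference was 0.80 ± 0.36, and 0.96 and 0.92, both called, without HC2 knockout replicate 1 or 7.

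Between HC2 and HC1, 3 of 8 members were called, Lifr, Il6st and Socs3, all higher in HC2, beside 54.3% of all genes called and 22.8% higher. The same 3 were the members for which every HC2 library lay above every HC1 library, as for 8.87% of genes. Between SVZ and HC2, 5 of 8 were called, beside 67.2% of all genes. Clcf1 and Lif were higher in SVZ (34.7% of genes were), and Lifr, Il6st and Socs3 lower (32.6% were). For SVZ minus HC2, the differences without the 2 SVZ libraries whose Egfl7 goes against the label were −1.74 for Lifr, −0.80 for Il6st and −0.60 for Socs3, all called. Without overlap were Lif above HC2 (21.6% of genes) and Lifr and Il6st below (16.4%). The median over the 8 members was 0.46 for HC2 minus HC1, against −0.06 over all genes, and −0.40 for SVZ minus HC2, against 0.00 over all genes.

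Cell cycle genes also differed between the regions and rounds. The mean log2(RPKM + 1) of 26 of them was 6.74 to 6.91 in SVZ libraries, 1.75 to 5.95 in HC2 and 4.84 to 6.19 in HC1. With that mean as a covariate, the Lifr differences were 1.57 for HC2 minus HC1 and −1.80 for SVZ minus HC2. Il6st went to 0.24 and −0.21, the second no longer called, and Socs3 went to 0.43 and 0.13, neither called. Clcf1 and Lif were at 0.96 and 0.89 for SVZ minus HC2. Cell cycle means of all SVZ libraries lay above those of all hippocampal ones. The SVZ differences under the covariate are therefore extrapolated and cannot show what is kept or lost. Round and depth cannot be told apart between HC2 and HC1. HC2 knockout replicates 1 and 7 and HC2 wild type replicate 2 lay within the HC1 range of cell cycle means, at 5.64, 5.72 and 5.95. Their Lifr was 43.6, 58.0 and 54.0 RPKM, and that of the HC2 libraries below that range was 38.8 to 74.9 RPKM. The covariate fit is a description, and the part of cycling in these differences was not tested.

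Astrocyte genes moved in the same libraries. Summed over 11 astrocyte markers, all past the filter, levels were 2376 to 4849 RPKM in HC2 knockouts and 2075 to 5748 in HC2 wild types, and 2087 to 2498 RPKM in HC1 knockouts and 2183 to 3387 in HC1 wild types. Gfap, an astrocyte filament gene that STAT3 activates, had 9.96, 84.9, 2.47 and 328 RPKM in HC2 knockouts, against 1.33, 114, 536 and 20.8 RPKM in HC2 wild types. Within each HC2 group the highest Gfap library, knockout replicate 8 and wild type replicate 5, was also the highest for Stat3 (152 and 121 RPKM), Socs3 (7.61 and 4.95), Osmr (7.78 and 3.78) and Il6st (73.4 and 80.4). Clcf1, on few reads, was also highest there (0.363 and 0.707 RPKM). Lifr was not, at 54.7 and 38.8 RPKM, the latter the lowest of HC2, nor was Lif, at 0.170 and 0 RPKM. Cntfr was 21.6 and 60.8 RPKM, the lowest and the highest of the 20 libraries. Cell cycle means in those libraries were 3.53 and 1.75, the lowest of their groups. In HC1 the highest Gfap library, wild type replicate 1 with 149 RPKM, had the highest Stat3 (112 RPKM) and Socs3 (2.08 RPKM) of the 6 libraries but not the highest Il6st for that round. The part of astrocyte content in these values was not tested.

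**Figure D4:**
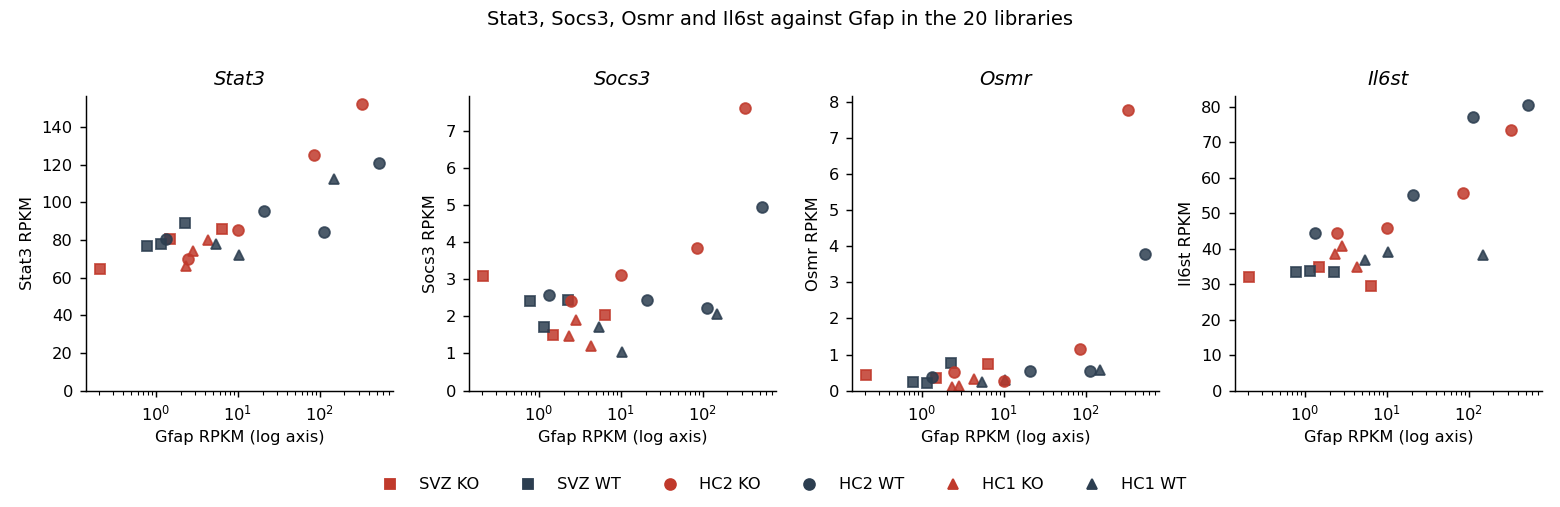
Expression (RPKM) of Stat3, Socs3, Osmr and Il6st on linear axes from 0 against Gfap on a log axis, 1 point per library for all 20 libraries, with squares for SVZ, circles for HC2, triangles for HC1, red for knockout and dark blue for wild type. The 2 points farthest right, HC2 wild type replicate 5 (Gfap 536 RPKM) and HC2 knockout replicate 8 (328 RPKM), are the 2 highest for Socs3 and Osmr, and libraries of both genotypes lie along the same spread.

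The genes most like Socs3 over the 20 libraries were Fos (Pearson r = 0.88), Glis3 (r = 0.86), Junb (r = 0.84), Bcr (r = 0.84) and Sbno2 (r = 0.83). Fos and Junb are immediate early genes of the AP-1 family. Fos had 20.7, 35.7, 19.2 and 80.5 RPKM in HC2 knockouts, against 15.9, 22.9, 62.1 and 20.3 RPKM in HC2 wild types, highest in the same 2 libraries as Socs3. Without those 2 libraries r was 0.69 for Fos, 0.77 for Glis3, 0.82 for Junb, 0.75 for Bcr and 0.68 for Sbno2. As above, the 20 libraries share region, round and depth, and r is a description.

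Around the 9 members, 61 further genes of the pathway were listed, and 47 passed the filter. None of the 47 was called between knockout and wild type in SVZ, HC2 or HC1 (limma; 0, 3 and 2 genes at an unadjusted p under 0.05), with medians of 0.01, −0.05 and −0.01 against 0.00, 0.00 and −0.01 over all genes. By role, the 9 JAK kinases and adapters included Jak1 at a median of 53.6 RPKM and Jak2 at 79.7 RPKM over the 20 libraries. Between HC2 and HC1, 15 of the 47 were called higher and 16 lower, beside 22.8% and 31.5% of all genes. Between SVZ and HC2, 17 were higher and 14 lower, beside 34.7% and 32.6%, and between SVZ and HC1, 10 were higher and 5 lower, beside 14.5% and 19.6%.

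Il11ra1, the interleukin-11 receptor, was higher in HC2 than in HC1 like Lifr and Il6st, by 0.92 ± 0.19 (limma, adjusted p = 0.000585). Il11ra2, the other interleukin-11 receptor gene, was lower, at −0.60 ± 0.13 (adjusted p = 0.00124). Among adapters, Grb2, which links receptors to RAS, was at 13.0 to 19.5 RPKM in HC2, against 72.7 to 85.4 RPKM in HC1, a difference of −2.26 ± 0.08 (limma, adjusted p = 1.79e-13). Of 13 other inhibitors, 4 were higher and 6 lower in HC2 than in HC1, beside 22.8% and 31.5% of all genes. Socs1 was higher, by 1.02 ± 0.12 (adjusted p = 1.12e-06), and Socs5 lower, at −0.87 ± 0.15 (adjusted p = 9.04e-05), so the inhibitor family did not move as one with Socs3. Of 15 STAT3-responsive genes, 5 were higher and 3 lower in HC2 than in HC1, beside the same shares. Cebpd, a C/EBP transcription factor, was higher by 2.04 ± 0.14 (adjusted p = 1.90e-09) and Junb by 1.55 ± 0.18 (adjusted p = 1.17e-06), while Myc was lower, at −1.14 ± 0.23 (adjusted p = 0.000561).

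The 2 STAT3-responsive genes called between SVZ and HC1 with the largest differences were Timp1 encoding a metalloproteinase inhibitor and Ccl2 a chemokine. Timp1 had 3.49 to 12.2 RPKM in SVZ, against 0.446 to 3.42 RPKM in HC1, a difference of 1.44 ± 0.30 (limma, adjusted p = 0.00265). Ccl2 had 2.44 to 6.61 RPKM in SVZ, against 0.175 to 2.49 RPKM in HC1, a difference of 1.12 ± 0.31 (adjusted p = 0.0121). They were higher in SVZ than in HC1 along with Lif and Clcf1. Of the 15 STAT3-responsive genes, 5 were called higher and 0 lower in SVZ than in HC1, beside 14.5% and 19.6% of all genes. Gfap was not called in that comparison, at −1.90 ± 1.23 (limma, adjusted p = 0.245). Against HC2 instead, Gfap lay lower in SVZ, at −3.85 ± 1.15 (adjusted p = 0.00744). Of the same 15 genes, 6 were called higher and 5 lower in SVZ than in HC2, beside 34.7% and 32.6% of all genes. Their median difference there was 0.04, so the list did not follow Lif and Clcf1 in that comparison.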

How the data were processed

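Per library, ribosomal RNA was removed, stranded cDNA was captured with mouse exon baits and fragments were read from both ends, per the labels' protocols. The submitters' processing notes name FastQC 0.11.5, DESeq2 and the build mm10, also called GRCm38. The sources used here do not name the aligner, the counter or the gene lengths. The authors deposited RPKM per gene on a linear scale, per the file headers, and a blank was read as 0.

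From these values log2(RPKM + 1) was tested on the 16403 genes that reached 0.5 RPKM in 3 or more libraries, using limma 3.58.1 in R 4.3.3 (trend and robust, 1 mean for each of 6 groups, 14 residual degrees of freedom). Called means a two-sided Benjamini-Hochberg adjusted p under 0.05 over those genes. Differences are on that log2 scale, on which low genes change less than in RPKM. Errors after ± beside differences are standard errors. Regions and rounds were compared as means of their 2 genotype groups. The script was tested on simulated data.

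Whole reads were worked out from the steps between low values, of which 76.96% to 80.7% lay within 0.1 of a whole read in SVZ and HC1 and 78.18% to 80.93% in HC2. Whether 1 such unit is a read or a pair is not given. These counts and limits cover counting error only. As separate cultures are not stated, p-values measure the spread between libraries, which may be technical.

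The members and gene lists were chosen with earlier results of these data known. All 9 members are named, other pathway genes where called or among the 3 largest differences of their list, and similar genes as the top 5 by r. A gene that the rule would name is not reported here. Replicate numbers mark different mice within a group. Same-numbered knockout and wild-type libraries did not deviate together within SVZ or HC1 (r from −0.28 to 0.02), so no block was used. Mouse numbers recur between groups, as mouse 1 in HC1 and HC2 knockouts and mouse 4 in SVZ and HC2 knockouts. Whether those are the same animals is not said. The region and round comparisons treat such libraries as independent. The alternatives were another pseudocount, 2 other filters, quantile normalization, array weights, fits on the compared groups alone, a replicate block, a cell cycle covariate, knockout groups alone, and leaving out libraries.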

Additional observations from a re-analysis of the deposited data

Results flagged for a closer look

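In groups of 4 libraries, 16 sets of a member in a group were looked at for 1 library far from the rest, and 4 had one. The sets share the same libraries and were judged on linear RPKM, so this count cannot be set against a chance rate. Osmr in HC2 knockouts was 7.78 RPKM in replicate 8, against at most 1.14 RPKM in the other 3. In HC2 wild types, Osmr was 3.78 RPKM in replicate 5, against at most 0.545 RPKM in the rest of the group. Socs3 was 4.95 RPKM in that same library, against at most 2.58 RPKM in the other HC2 wild types. Lif was 0.127 RPKM in HC2 wild type replicate 6 and listed at 0 in the other 3, a set that is flagged whatever the size of its 1 value above 0. The first 3 fall in the libraries with the highest Gfap of their groups, 328 and 536 RPKM.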

How the results depend on the processing

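No member was called between knockout and wild type under any alternative but one: without SVZ knockout replicate 3, 1 was called in SVZ (Clcf1, range over libraries left out 0 to 1) and 1 in the difference of effects between SVZ and HC2 (0 to 1). The count for SVZ minus HC1 (2) was 4 with array weights, 4 in a fit on those groups alone, 1 without the 2 SVZ libraries whose Egfl7 goes against the label, and 2 without any 1 library. The count for HC2 minus HC1 (3) was 5 with array weights and 3 to 5 over single libraries, with 5 without HC2 knockout replicate 7. The count for SVZ minus HC2 (5) was 3 with the cell cycle covariate, under which Socs3 turned from −0.47 to 0.13, and 4 to 6 over single libraries. The cause of these changes was not tested. Over all genes, calls between knockout and wild type numbered 0 to 9 in SVZ (main count 2) and 1 to 8 in HC1 (2), and 0 to 26 in HC2 (4), 26 without HC2 wild type replicate 2. SVZ minus HC1 called 5593 genes, against 2934 without the 2 SVZ libraries and 1158 with knockout groups alone, and SVZ minus HC2 11027, against 6778 with the covariate. The call of Socs3 for SVZ minus HC2 was also lost with the replicate block, with no filter, with quantile normalization and in the fit on those groups alone. With the block, 1 gene was called in HC1 between knockout and wild type, against 2, and it changed no other call of a member. Depth limits the ligands: Clcf1 had 0 to 14 reads in the hippocampus, and Lif was listed at 0 in 5 of 8 HC2 libraries.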
